A study of Danio rerio with 2 samples.

Results

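Microglia and radial glia made up 63 of the 8030 barcodes kept from single-cell RNA libraries of sorted adult zebrafish brain cells, 36 in the gpr85 knockout library and 27 in the control library. Microglia were barcodes in which at least 3 of 7 genes were detected, namely mpeg1.1, csf1ra, csf1rb, c1qa, c1qb, c1qc and spi1b. Radial glia were the remaining barcodes in which at least 3 of 6 genes were detected, namely fabp7a, s100b, cx43, gfap, her4.1 and slc1a3b. The rule gave 12 microglia in the knockout and 16 in the control library, and 24 radial glia in the knockout and 11 in the control library. The other 3571 knockout and 4396 control barcodes are the rest of the sort. Members were selected on the detection of these 13 genes, so the levels of those genes, and of every gene compared between members and the rest, are given as a description.

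The series asked what lasting loss of Gpr85, an orphan G protein-coupled receptor, does to gene expression in brain cells that use its locus. The knockout library (gpr85GAL4/GAL4) came from brains with 2 Gal4 alleles at gpr85, and the control library (gpr85Gal4/+) from brains with 1 such allele, so the control cells carry the knock-in as well. Adult brains were dissociated with papain, eGFP-positive cells that excluded a viability dye were sorted, and 3 prime droplet libraries were made, with 1 library per genotype. The number of fish in a library, their sex and their age beyond adult are not given in the labels used here. Cells of 1 library are not replicates, so no test between genotypes was possible, and genotype cannot be told apart from fish, dissociation, sort and library. Intervals are at 95% and cover counting error only. They treat molecules as independent, so they are too narrow for a gene of which a few barcodes hold most molecules. Levels are given as CPM, the sum of a gene's unique molecular identifiers (UMIs, counted molecules) divided by the UMI total of the class in that library and scaled as usual for that unit.

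Microglia are the resident macrophages of the brain. They depend on signalling through the Csf1 receptor, clear dying cells and debris through lysosomes, and carry complement and antigen presentation genes. Radial glia are the ventricular progenitors of the fish brain, which persist in the adult, are held in a progenitor state by Notch signalling and also do the work of astrocytes, such as taking up glutamate and buffering ions. Neither cell type is a neuron, while the Gal4 knock-in lies at the locus of a receptor gene known for its neuronal expression.

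The deposited matrices held 17646062 UMIs in the knockout and 19368218 UMIs in the control library. Microglia held 101147 and 71684 UMIs in knockout and control, with medians of 9638 and 2764 UMIs per barcode. Radial glia held 144123 and 36032 UMIs in knockout and control, with medians of 4515 and 2545 UMIs per barcode, and the other barcodes had medians of 2682 and 2474. The deleted receptor itself, gpr85, was at 110 CPM in the other barcodes of the knockout and 146 CPM in those of the control library, which does not check the labels, since the part of the transcript that the knock-in removes is not given in the sources used here. Knockout members were sampled more deeply, which bears on every share of barcodes with a UMI given below. Of the kept barcodes, 8 had the same sequence in both libraries, and 1 of them was a member, a knockout microglia barcode of 11423 UMIs whose control counterpart was not a member (3123 UMIs). No barcode met both gates.

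Microglia had similar shares in both libraries, and radial glia had the larger share in the knockout library. Microglia formed 0.333% of kept barcodes in the knockout library (95% exact interval 0.172 to 0.580%) and 0.362% in the control library (0.207 to 0.587%), a log2 ratio of -0.12 (-1.20 to 0.96). Radial glia formed 0.665% of kept barcodes in the knockout library (0.427 to 0.988%) and 0.249% in the control library (0.124 to 0.445%), a log2 ratio of 1.42 (0.39 to 2.45). When only 2 radial glia genes were required, that ratio was 0.59 (-0.01 to 1.19). Counted by a summed level of 39 other radial glia genes of at least 10000 CPM, with no gate, the shares were 0.804% in the knockout and 0.339% in the control library, a log2 ratio of 1.25 (0.35 to 2.14).

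The edges of both gates were examined once. Just inside the microglia gate, with exactly 3 genes, 1 knockout barcode had 41384 CPM summed over 30 other microglia and macrophage genes (apoc1, cd74a and the like, of which 28 are among the features), and the 4 control barcodes had a median of 65902 CPM. Just outside, with exactly 2 genes, 8 knockout barcodes had a median of 70147 CPM and 5 control barcodes a median of 74275 CPM. The microglia gate therefore left out barcodes of like content: 9 knockout and 17 control barcodes outside it reached the lowest level of any microglia member, 36834 CPM, at median depths of 850 and 733 UMIs. The radial glia gate separated its edges more. Just inside it, with exactly 3 genes, the radial glia identity list stood at a median of 16210 CPM in 10 knockout and 15823 CPM in 7 control barcodes, and just outside it, with exactly 2 genes, at 1750 CPM in 26 knockout and 1522 CPM in 29 control barcodes. Outside this gate, 8 knockout and 7 control barcodes reached 10000 CPM, at median depths of 582 and 898 UMIs.

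The microglia gate picked out barcodes rich in microglia and macrophage genes. All 12 knockout and all 16 control microglia carried cd74a, the MHC class II invariant chain, and their summed microglia and macrophage list ranged from 37163 to 149897 CPM per barcode in the knockout (median 89658) and from 36834 to 181582 CPM in the control library (median 72164). In the other barcodes the list summed to 226 CPM in the knockout and 211 CPM in the control library. A knockout member of 3238 UMIs and a control member of 4385 UMIs had 0 UMIs of csf1ra, c1qa, c1qb, c1qc and ccl34b.1. Their apoc1 counts were 2 and 0 UMIs. Whether these members are microglia or other macrophages was not tested. The neuron list stood at a median of 0.759% of the other barcodes' level in knockout and 1.90% in control microglia, with highest values of 3.69% and 22.6%, and 13 erythrocyte features were at 0 UMIs in both. Of the radial glia identity genes, 27 slc1a2b UMIs in control microglia all came from 1 barcode of 12607 UMIs, and no knockout microglia barcode had any. Several other lists stood above the rest of the sort. The endothelium and mural list summed to 484 CPM in knockout and 474 CPM in control microglia, against 32.2 and 39.0 CPM in the other barcodes, with pecam1, an adhesion gene that leukocytes share with endothelium, at 326 and 363 CPM and the endothelial genes kdrl and cdh5 at 0 UMIs in both. The list of other leukocytes summed to 672 and 307 CPM, against 90.5 and 89.6 CPM, of which the phosphatase gene dusp2, also an immediate early gene, made up 593 and 279 CPM. Glial transmitter genes summed to 1967 and 3209 CPM, against 358 and 505 CPM, led by the sodium pump gene atp1b1a at 1068 and 1060 CPM. The radial glia identity list summed to 653 CPM in knockout microglia, against 1049 CPM, and to 1925 CPM in control microglia, against 1238 CPM. In the control barcode of 12607 UMIs it stood at 6266 CPM. Its median per barcode was below that of the other barcodes in both libraries, at 473 against 887 CPM in knockout and 621 against 1035 CPM in control. The part of other cells in these levels was not tested.

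**Figure D1:**
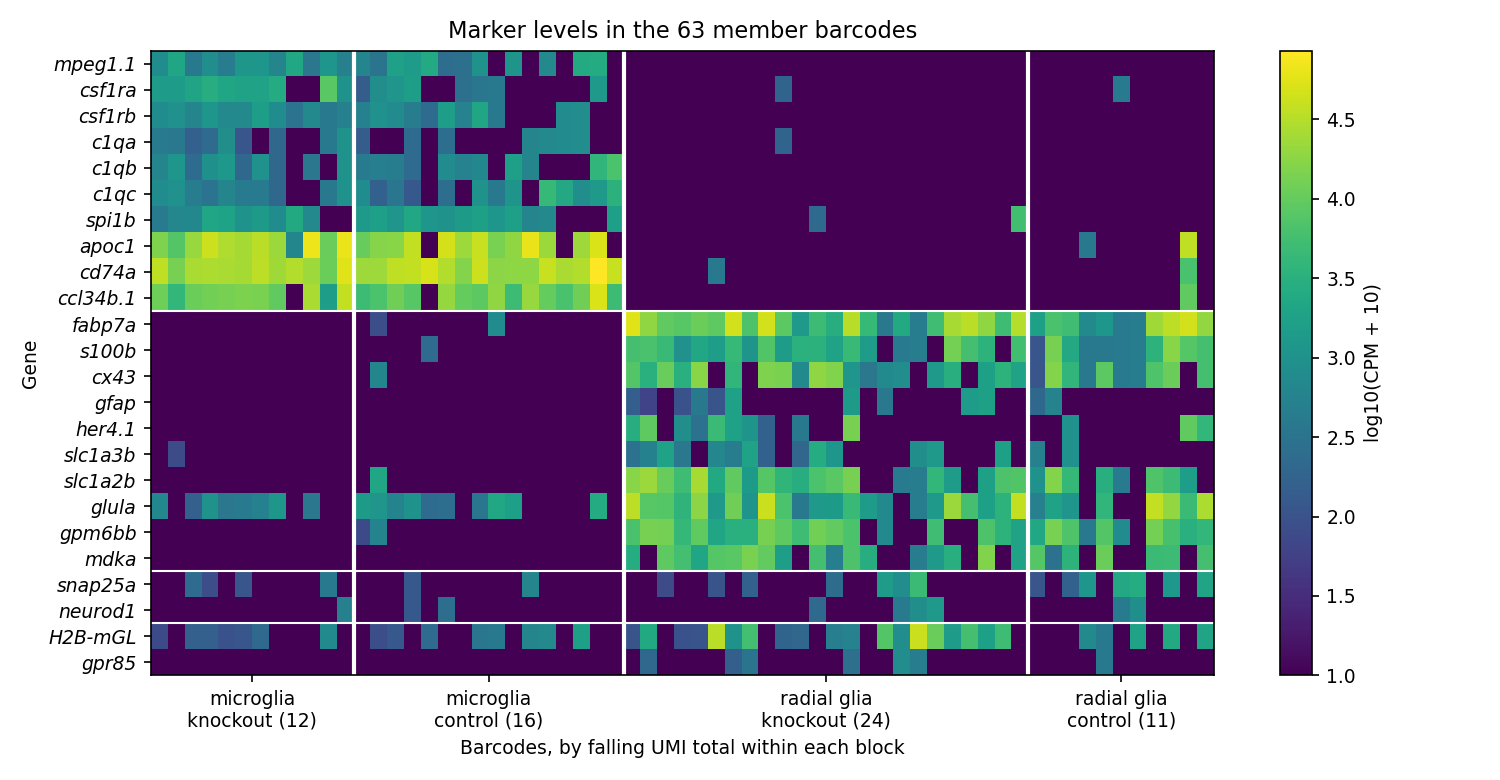
Level of 24 genes (rows) in each of the 63 member barcodes (columns), as log10 of CPM plus 10, in blocks of knockout and control microglia and knockout and control radial glia, each ordered by falling UMI total. The microglia genes are seen mainly in the 12 knockout and 16 control columns on the left, with gaps. The radial glia genes are seen mainly in the 24 knockout and 11 control columns on the right, also with gaps. H2B-mGL reaches 1702 CPM in microglia and 41848 CPM in 1 knockout radial glia barcode.

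Among the gate genes of microglia, csf1ra stood apart between the libraries. This gene, a zebrafish copy of the Csf1 receptor, had 200 UMIs in 10 of 12 knockout microglia and 41 UMIs in 8 of 16 control microglia, or 1977 and 572 CPM, a log2 ratio of 1.78 (1.30 to 2.31). Per barcode its level had a median of 1816 CPM and a maximum of 8343 CPM in knockout, and a median of 66.3 CPM and a maximum of 1580 CPM in control microglia. Among deep barcodes, the 8 knockout microglia with at least 4000 UMIs lay between 1468 and 2824 CPM, and the 5 control microglia of that depth between 0 and 1580 CPM, so the ranges overlapped by 1 control barcode. The control value of 0 was that of the barcode of 4385 UMIs described above. Knockout barcodes of 3238 and 2857 UMIs, just under that depth, were at 0 as well, so the gap between the ranges depended on the depth limit. Its paralog csf1rb was close to even, at 860 CPM in knockout and 684 CPM in control microglia (log2 ratio 0.33, -0.19 to 0.87).

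The other gate genes differed less. The macrophage perforin mpeg1.1 was at 989 CPM in knockout and 921 CPM in control microglia, and spi1b, which encodes the macrophage transcription factor Pu.1, at 1097 and 1381 CPM. The complement genes c1qb and c1qc were at 682 and 534 CPM in knockout, and at 502 and 530 CPM in control microglia. The third complement gene, c1qa, had 31 UMIs in knockout and 9 UMIs in control microglia, a log2 ratio of 1.23 (0.18 to 2.54). In summed level, each gate gene other than csf1ra and c1qa was less than 2-fold apart.

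Microglia markers outside the gate were concentrated in these few barcodes. Of all kept apoc1 UMIs, an apolipoprotein transcript typical of zebrafish microglia, the 12 knockout barcodes held 81.9% and the 16 control barcodes 72.1%. Its level was 25033 CPM in knockout and 21190 CPM in control microglia, with barcodes from 618 to 66853 CPM (median 23705) and from 0 to 64324 CPM (median 20600). It was at 2 or fewer UMIs in 1 knockout and 3 control barcodes, which carried cd74a all the same. The chemokine gene ccl34b.1, which marks a subset of zebrafish microglia, was seen in 11 of 12 knockout and 15 of 16 control barcodes, at 11508 and 9123 CPM.

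The genes outside the gates that stood highest over the rest of the sort were itgae.1 (an integrin alpha chain), marco (a scavenger receptor), rgs2 (a regulator of G protein signalling), sb:cb81, lgals3bpb (a galectin-binding protein), ctss2.1 (a cathepsin S), csf2rb (a cytokine receptor chain), zgc:158343, havcr1 (a phosphatidylserine receptor used in engulfment) and lgals9l1 (a galectin). In the other barcodes, each was under 3 CPM in both libraries, against 336 to 3312 CPM in knockout microglia and 167 to 2999 CPM in control microglia. Of 1174 genes with at least 20 UMIs in microglia, 711 (60.6%) were at least 2-fold above the other barcodes in both libraries and 40 (3.41%) at least 2-fold below. The reads of near-identical copies such as ctss2.1 and ctss2.2 may have been divided between them by the counting.

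Between genotypes, 388 of the 1174 genes in microglia (33.0%) differed at least 2-fold, 267 (22.7%) higher in knockout and 121 (10.3%) lower. The median gene stood at a log2 ratio of 0.19, and once that shift was taken out the split was 207 higher and 182 lower. Microglia lists are read against these shares. Of the 30 microglia and macrophage genes, 22 passed the UMI minimum, of which 3 were at least 2-fold higher and 2 at least 2-fold lower in knockout, with a median log2 ratio near 0. With each barcode weighted equally 8 of the 22 were higher and 2 lower, against 41.1% and 16.6% of all genes in that weighting. Without the deepest 2 barcodes of each library 5 of 19 were higher and 1 lower, against 29.0% and 15.7% of all genes. Of 17 antigen presentation genes, 9 passed, of which 1 was higher and 0 lower. Without the deepest barcode of each library 0 were higher, against 26.0% of all genes in that setting. The MHC class II beta chain gene mhc2dab stood at 4647 CPM in knockout and 4687 CPM in control microglia. Of 31 lysosome and uptake genes, 14 passed, with 2 higher and 1 lower; the lysosomal protein genes psap and grna had log2 ratios of -0.20 and 0.30.

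The 3 identity genes at least 2-fold higher in knockout microglia were lgals3bpb, p2ry12 and mafbb. The first had 335 UMIs in 10 of 12 knockout barcodes and 31 UMIs in 6 of 16 control barcodes, or 3312 and 432 CPM (log2 ratio 2.92, 2.40 to 3.52). Its ratio was 1.29 when each barcode was weighted equally, and the highest level of any barcode, 12970 CPM, was that of a control barcode of 771 UMIs. The purinergic receptor gene p2ry12, a sensor of injury signals in microglia, had 18 UMIs in knockout and 2 UMIs in control microglia (2.39, 0.61 to 5.82). The transcription factor gene mafbb had 32 UMIs in knockout and 6 UMIs in control microglia (1.83, 0.64 to 3.47). The 2 identity genes lower in knockout were havcr1 (47 and 68 UMIs, log2 ratio -1.02, -1.60 to -0.47) and cebpa, a myeloid transcription factor (39 and 57 UMIs, -1.04, -1.67 to -0.43).

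Single signalling and lipid genes differed in both directions. Of 30 cytokine and chemokine genes, 9 passed the minimum, with 2 higher and 1 lower in knockout, near the 22.7% and 10.3% of all genes. The chemokine receptor cxcr4b was at 1345 CPM in knockout and 544 CPM in control microglia (log2 ratio 1.29, 0.78 to 1.86). The inflammatory cytokine il1b was at 969 and 377 CPM, but was seen in 5 knockout and 3 control barcodes, with 55.1% of the knockout UMIs in 1 barcode. The 26 ccl35.2 UMIs, a further chemokine transcript, were all in 1 control barcode. With each barcode weighted equally, 4 of the 9 were higher and 1 lower, against 41.1% and 16.6% of all genes in that weighting. Of 20 lipid and iron genes, 5 passed in summed level, with 2 higher and 1 lower, against 22.7% and 10.3% of all genes. The gene abca1b, which exports cholesterol, was at 1552 CPM in knockout and 572 CPM in control microglia. The level of plin2, which coats lipid droplets, was 435 and 83.7 CPM, and that of fth1a, which encodes ferritin heavy chain, 69.2 and 599.9 CPM. Of the fth1a UMIs in control microglia, 69.8% were in 1 barcode.

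Among genes seen in at least 5 barcodes of the library in which they were higher, the largest ratios towards knockout were those of eepd1, caspb, col5a1, slc29a1b and plk2b. The caspase gene caspb, which acts in zebrafish inflammasomes, had 25 UMIs over 9 of 12 knockout microglia and 0 UMIs over 16 control microglia, at least 5.91-fold higher against a floor of 3 counts. By the same floor eepd1 (31 UMIs in 8 barcodes) was at least 7.32-fold higher and the collagen gene col5a1 (20 UMIs in 7 barcodes) at least 4.72-fold higher. The nucleoside transporter slc29a1b had 38 UMIs in knockout and 1 UMI in control microglia (log2 ratio 4.19, 2.19 to 10.09), and the kinase plk2b 34 and 1 UMIs (4.03, 2.02 to 9.94). Those 5 genes were seen in 7 to 9 of 12 knockout barcodes and in at most 1 of 16 control barcodes. All 5 passed the UMI minimum through their knockout counts alone and were ranked on the same ratio. Their ratios and bounds are therefore a description only. Control microglia were shallower, with a median of 784 genes per barcode, against 2956.5 in knockout microglia.

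The largest ratios towards control were those of ccnd1, fth1a, pgbd4, tgm2l and smox. The cell cycle gene ccnd1 (cyclin D1) had 2 UMIs in knockout and 38 UMIs over 6 control microglia (log2 ratio -4.44, -7.84 to -2.79), of which 65.8% were in 1 barcode. The transposase-derived gene pgbd4 had 3 and 19 UMIs (-2.97, -5.56 to -1.40). The transglutaminase gene tgm2l had 11 and 57 UMIs (-2.82, -3.95 to -1.92), and the spermine oxidase gene smox 13 and 58 UMIs (-2.61, -3.65 to -1.77). The control UMIs of tgm2l lay in 6 barcodes and those of smox in 7, with 42.1% and 39.7% of them in 1 barcode.

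**Figure D2:**
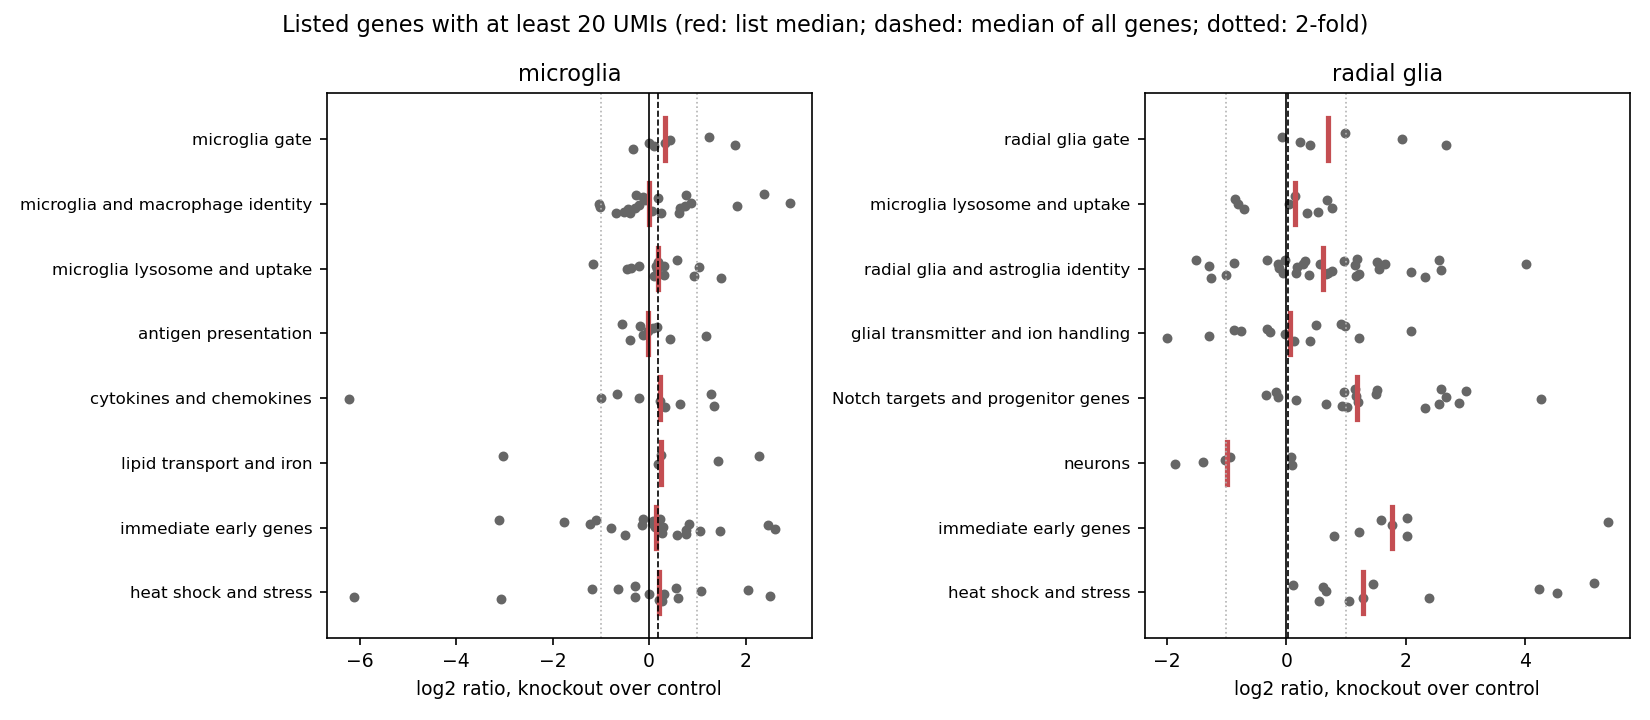
Log2 ratio of knockout over control for each listed gene with at least 20 UMIs (grey points), by gene list, in microglia (left) and radial glia (right); red bars are list medians, the dashed line the median of all genes tested and dotted lines mark 2-fold. Microglia list medians lie close to the 0.19 of all genes, while in radial glia, where the minimum favours genes high in knockout, the Notch, immediate early and heat shock lists have medians of 1.19, 1.77 and 1.29.

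Microglia ranged widely in immediate early gene level, and many control microglia had none. Immediate early genes such as fosab and egr1 are transcribed within minutes of a stimulus. The 30 listed features took over 10000 CPM in 8 of 12 knockout and 5 of 16 control microglia, where they ran from 19340 to 51902 CPM in knockout and from 19612 to 57961 CPM in control. In the other microglia they stood at 9902 CPM or less in the 4 knockout barcodes and at 1423 CPM or less in the 11 control barcodes, of which 9 had 0 UMIs. In the knockout library 0 of 12 barcodes lacked these UMIs, and the 4 lower barcodes had 9902, 8956, 2100 and 1027 CPM. The level moved with depth: with at least 4000 UMIs, 7 of 8 knockout and 5 of 5 control microglia were above 10000 CPM. The part of depth in this range was not tested.

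Single barcodes are described here, and the part of depth or genotype in their levels was not tested. At a middle depth the knockout library had 3 microglia, with 3238, 2857 and 2637 UMIs, and the control library 4, with 3912, 3616, 2925 and 2603 UMIs. The knockout barcodes showed 1475, 661 and 1153 genes and 8956, 2100 and 19340 CPM of immediate early genes. The control barcodes showed 798, 770, 871 and 809 genes and 0 immediate early UMIs each. The 5 of these 7 barcodes with the fewest genes were those with the least immediate early signal.

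The genotypes were closer in summed level, to which the deep barcodes contribute most, at 37282 CPM in knockout and 31248 CPM in control microglia. Of 32 listed genes 23 passed the minimum, 4 higher and 4 lower in knockout, with a median log2 ratio of 0.13. Among all genes 22.7% were higher and 10.3% lower, with a median of 0.19. The most abundant, fosab, was at 8661 CPM in knockout and 7087 CPM in control microglia. The transcription factor gene klf6a (2264 and 405 CPM, log2 ratio 2.46, 1.92 to 3.10) and the phosphatase gene dusp5 (1147 and 181 CPM, 2.61, 1.83 to 3.61) were higher in knockout. The growth response gene egr3 (455 and 1562 CPM, -1.77, -2.31 to -1.27) and the stress factor gene atf3 (39.5 and 377 CPM, -3.11, -5.23 to -1.73) were lower. With each barcode weighted equally, 12 of the 23 were at least 2-fold higher in knockout and 0 lower, against 41.1% of all genes higher in that weighting. Without the deepest 2 barcodes of each library, 7 of 22 were higher and 1 lower, against 29.0% and 15.7% of all genes in that setting.

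The counts of heat shock and stress genes in microglia moved with the weighting, as did those of all genes. Of 23 listed genes 15 passed, with 3 higher and 3 lower in knockout and a median log2 ratio of 0.20. Among all genes 22.7% were higher and 10.3% lower, with a median of 0.19. With each barcode weighted equally, 8 of the 15 were higher and 2 lower, with a median of 1.09. Among all genes in that weighting 41.1% were higher and 16.6% lower, with a median of 0.58. The chaperone gene hspa8 was seen in all 28 microglia, at 2818 CPM in knockout and 2832 CPM in control. The inducible hsp70l was at 3628 and 1716 CPM (log2 ratio 1.08, 0.78 to 1.39), and the endoplasmic reticulum chaperone hspa5 at 672 and 112 CPM (2.51, 1.53 to 3.86). The 24 hspb1 UMIs were all in control microglia, with 95.8% in 1 barcode.

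**Figure D3:**
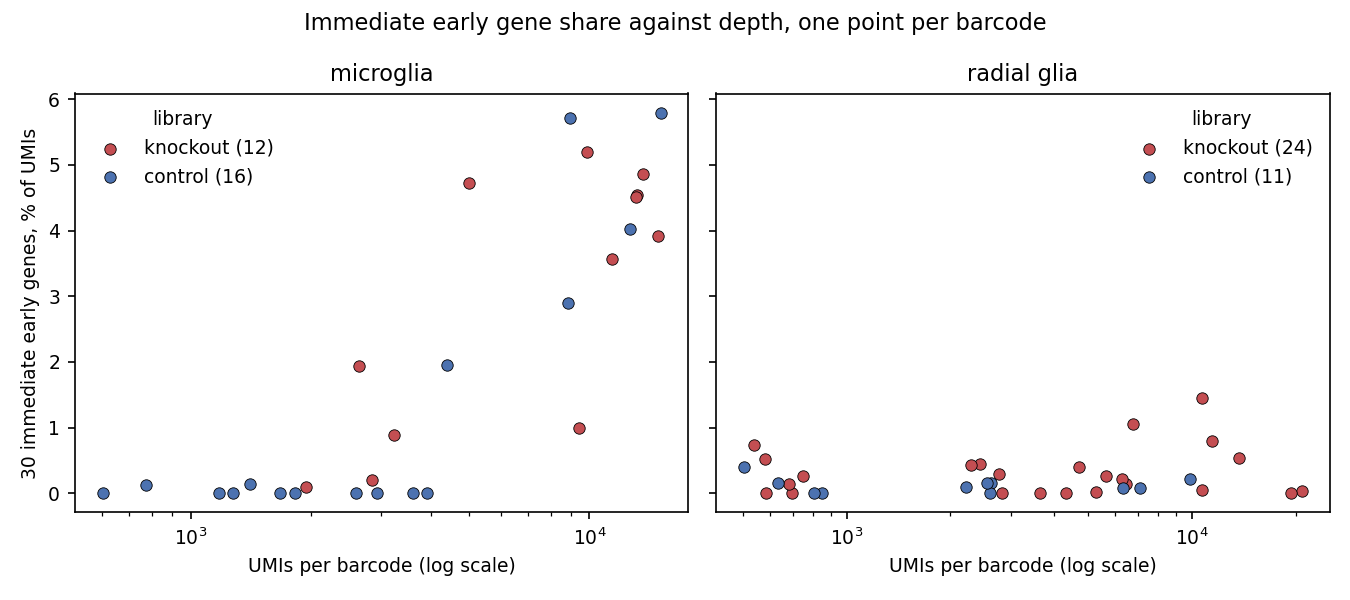
Share of UMIs taken by 30 immediate early gene features (percent) against UMIs per barcode (log axis) for each microglia (left) and radial glia (right) barcode, knockout in red and control in blue. With 1% standing for 10000 CPM, microglia reach 51902 CPM in knockout and 57961 CPM in control, 9 of 16 control microglia sit at 0, and radial glia reach 14593 CPM in knockout and 3968 CPM in control.

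Microglia carried next to none of the reporter that marks the rest of the sort. The added sequence H2B-mGL had 11 UMIs in knockout microglia and 9 UMIs in control microglia, with at most 2 per barcode, or 109 and 126 CPM. The other barcodes had 25564 CPM in knockout and 12044 CPM in control. Even barcodes with under 100 UMIs, a measure of free RNA, held 14832 CPM in the knockout and 9908 CPM in the control library, so microglia stood at 0.733% and 1.27% of the free RNA level. H2B-mGL was seen in 58.3% of knockout microglia (27.7 to 84.8%) and 50% of control microglia (24.7 to 75.3%), at median depths of 9638 and 2764 UMIs. These shares are not taken as a measure of expression, and the part of free RNA in them was not tested. Thinned to 500 UMIs per barcode, 0 of 12 knockout microglia and 1 of 16 control microglia had a UMI, where 0 of 12 allows up to 25% of barcodes with a UMI at that depth by a floor of 3 counts and 26.5% by the exact interval, against 3215 of 3571 other barcodes in the knockout and 3371 of 4396 in the control library. The knockout to control log2 ratio was -0.22 (-1.62 to 1.24).

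No gpr85 UMI was found in any microglia barcode. Counts of 0 over the class allow up to 29.7 CPM in knockout and 41.9 CPM in control microglia, below the 110 and 146 CPM of the other barcodes. The paralogs gpr27 and gpr173 were also at 0 UMIs in microglia of both libraries. The labels name eGFP as the sorted signal, while the matrices count H2B-mGL, and how these names relate is not given in the sources used here.

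**Figure D4:**
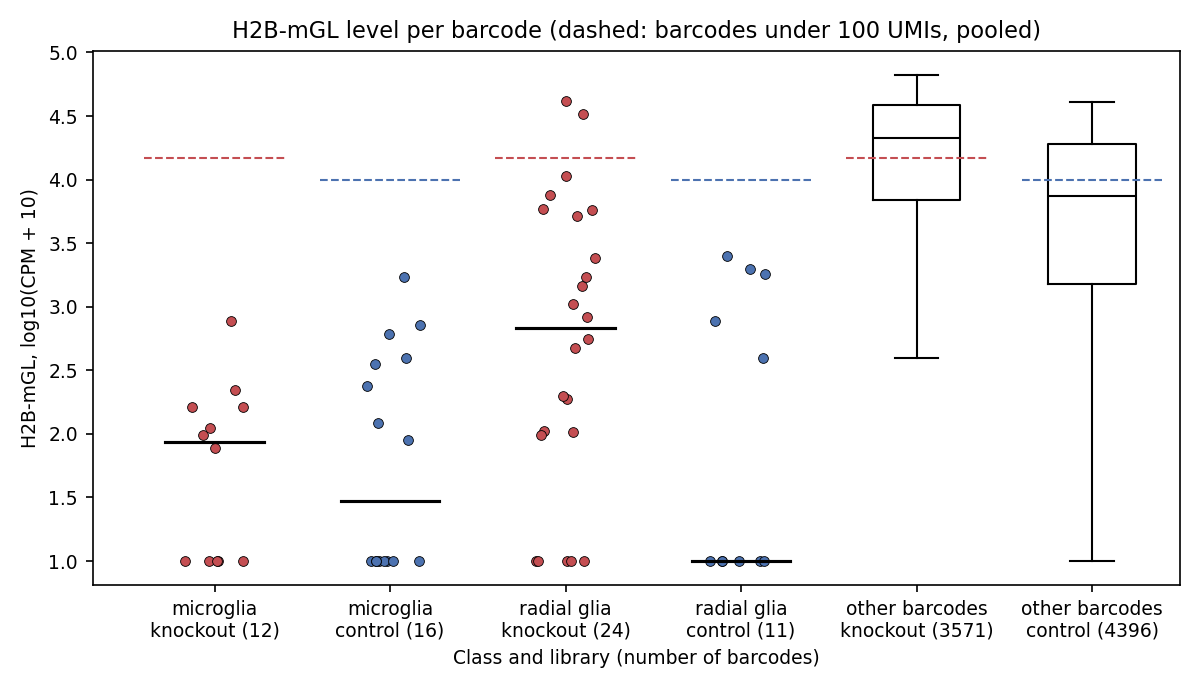
H2B-mGL level per barcode, as log10 of CPM plus 10, for microglia, radial glia and other barcodes, knockout left of control in each pair; points are barcodes with their median as a bar, boxes give quartiles with whiskers at the 5th and 95th percentiles, and dashed lines give the pooled level of barcodes under 100 UMIs. All microglia lie below the dashed lines of 14832 CPM (knockout) and 9908 CPM (control), and 2 knockout radial glia barcodes lie above theirs.

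The radial glia label held for most but not all members. The identity list of 39 genes outside the gate, among them the glutamate transporter gene slc1a2b and the glutamine synthetase gene glula, summed to at least 10284 CPM in 21 of 24 knockout barcodes and at least 15823 CPM in 8 of 11 control barcodes. The other barcodes' median was 887 CPM in the knockout and 1035 CPM in the control library. The remaining 3 knockout members stood at 3289 to 3623 CPM and the remaining 3 control members at 1356 to 3143 CPM. These 6 barcodes had 1 to 6 fabp7a UMIs in knockout and 1 or 2 in control, no her4.1 UMI, and neuron list levels of 28.6 to 114% of the other barcodes in knockout and 35.0 to 45.3% in control. The myelin gene mbpa was seen in 2 of the 3 knockout and 3 of the 3 control barcodes. The 21 knockout and 8 control members above them shared some of these traits. Their neuron list levels reached 43.3% in knockout and 53.8% in control. Among them her4.1 was seen in 10 of 21 knockout and 3 of 8 control members, and mbpa in 0 of 21 and 4 of 8. Free RNA held fabp7a at 425 CPM in the knockout and 327 CPM in the control library, above the 18.2 and 20.3 CPM of the other barcodes.

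**Figure D5:**
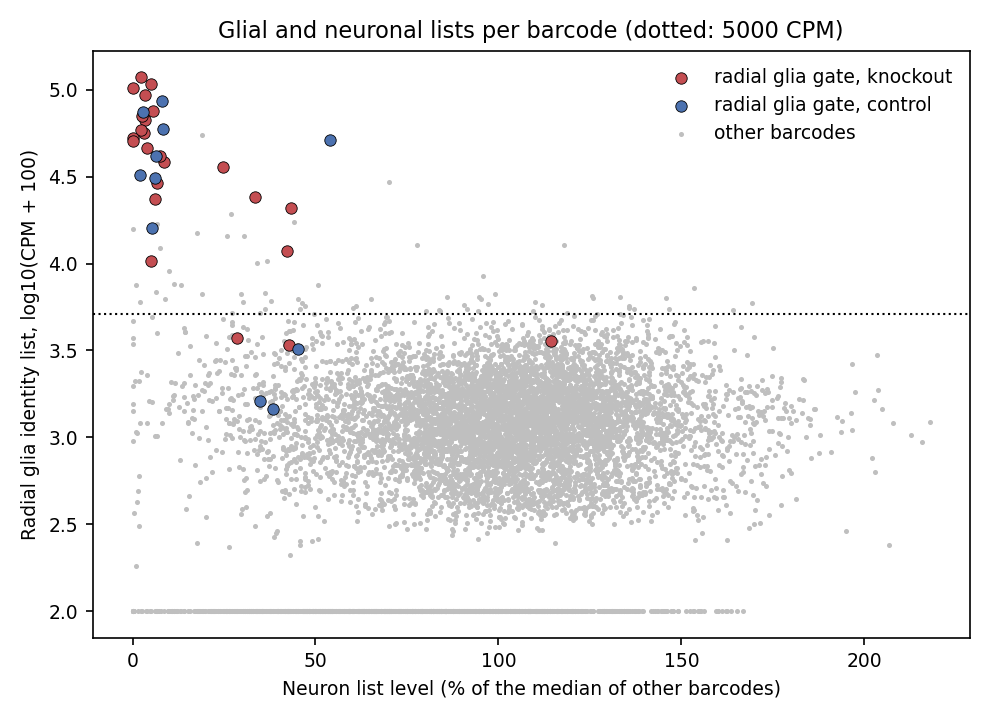
Summed level of the radial glia identity list (vertical, log10 of CPM plus 100) against the neuron list level (horizontal, percent of the median of the other barcodes), for knockout (red) and control (blue) radial glia and the other barcodes (grey). Below the dotted line of 5000 CPM lie 3 knockout and 3 control members, of which 1 knockout member has a neuron list level of 114%.

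Lists of other cells stood below or above the rest of the sort. The neuron list summed to 2165 CPM in knockout and 3663 CPM in control radial glia, against 28562 and 30503 CPM in the other barcodes, and erythrocyte genes to 312 and 194 CPM, against 444 and 299.99 CPM. The microglia and macrophage list summed to 118 and 999 CPM, against 226 and 211 CPM, and ependyma and choroid plexus genes to 201 and 416 CPM, against 78.8 and 90.9 CPM. In 1 control barcode of 632 UMIs the microglia and macrophage list stood at 50633 CPM. That list was at 0 in 14 of 24 knockout and 6 of 11 control radial glia. The endothelium and mural list summed to 1568 CPM in knockout and 1665 CPM in control radial glia, against 32.2 and 39.0 CPM in the other barcodes. Of that list, notch3, which radial glia share with mural cells, was at 1006 and 888 CPM and the growth factor receptor gene pdgfrb at 416 and 472 CPM, while kdrl, pecam1 and cdh5 were at 0 UMIs in both. The part of other cells in these levels was not tested. Genes of dividing cells were at 430 CPM in knockout and 389 CPM in control radial glia, against 959 and 781 CPM in the other barcodes.

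The gate genes of radial glia varied widely between barcodes. The fatty acid binding protein gene fabp7a, a classical radial glia marker, was in all 24 knockout and all 11 control members. It ran from 362 to 54703 CPM in knockout barcodes (median 8910) and from 393 to 45886 CPM in control barcodes (median 5226). Summed, it was at 20129 CPM in knockout and 5245 CPM in control (log2 ratio 1.94, 1.73 to 2.16), but 39.3% of the knockout UMIs lay in 1 barcode of 20858 UMIs, and the ratio was 0.35 with each barcode weighted equally. The calcium-binding protein gene s100b was even, at 3705 CPM in knockout and 3885 CPM in control. The gap junction gene cx43 was at 6661 and 5023 CPM (0.40, 0.18 to 0.64). A single control barcode of 7066 UMIs held 67.9% of the control s100b UMIs and 61.9% of the control cx43 UMIs.

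The Notch target her4.1 was seen in 10 of 24 knockout and 3 of 11 control radial glia, at 2553 and 389 CPM (log2 ratio 2.67, 1.95 to 3.60), and its ratio was 0.13 with equal weights. The glial filament gene gfap was scarce, with 30 UMIs in 10 knockout barcodes and 6 UMIs in 2 control barcodes. The glutamate transporter gene slc1a3b had 91 UMIs in knockout and 11 UMIs in control radial glia, a log2 ratio of 0.99.

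Glial function genes set radial glia apart from the rest of the sort in both libraries. Highest over the other barcodes were mdka (the growth factor midkine), notch3 (a Notch receptor), atp1b4 and atp1a1b (sodium pump subunits), s1pr1 (a sphingosine phosphate receptor), slc3a2a (an amino acid transporter chain), gpm6bb (a membrane glycoprotein), ptgdsb.1 (a prostaglandin D synthase), tmem176l.1 and slc1a2b. Of 1848 genes with at least 20 UMIs in radial glia, 670 (36.3%) were at least 2-fold above the other barcodes in both libraries and 110 (5.95%) at least 2-fold below. The membrane glycoprotein gene gpm6bb was at 7521 CPM in knockout and 5745 CPM in control radial glia, against 11.8 and 15.6 CPM in the other barcodes. Midkine, mdka, was at 4468 and 3941 CPM (log2 ratio 0.18, -0.08 to 0.45).

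Between genotypes, 618 of the 1848 genes in radial glia (33.4%) differed at least 2-fold, 372 (20.1%) higher in knockout and 246 (13.3%) lower, with a median log2 ratio of 0.03. With 2 counts added to each sum in place of 0.5 the split was 212 higher and 265 lower, with a median of -0.16. An equal count weighs more in the smaller control sums and moves ratios towards control, so the split depended on the count added. The minimum of 20 UMIs runs over both libraries, of which knockout holds 144123 and control 36032 radial glia UMIs, so it favours genes high in knockout, and the counts of listed genes are a description only. Of the 39 identity genes 32 passed the minimum, with 12 higher and 4 lower in knockout and a median log2 ratio of 0.61. With the members under 5000 CPM in the identity list left out, 8 were higher and 5 lower (median 0.40), against 21.1% of all genes higher. With only 2 gate genes required, 22 were higher and 1 lower, against 14.5% of all genes higher. That setting held 49 knockout and 40 control barcodes. Those with exactly 2 gate genes had median identity levels of 1750 CPM in knockout and 1522 CPM in control. Their part in the counts from that setting was not tested. The glutamate transporter gene slc1a2b was at 10838 CPM in knockout and 4635 CPM in control (1.22, 0.99 to 1.46), with 66.5% of the control UMIs in 1 barcode. Of 25 transmitter and ion handling genes, which include slc1a2b and the gate genes cx43 and slc1a3b, 14 passed, with 2 higher and 2 lower and a median of 0.06. That list had no stable direction. With only 2 gate genes required, 8 were higher and 0 lower (median 1.18), against 14.5% of all genes higher. Without the deepest barcode of each library 2 were higher and 4 lower (-0.39). Without the deepest 2, 6 of 13 were higher and 1 lower (0.99). The transmitter list had 4 higher and 2 lower at 2000 UMIs or more, and 1 higher and 3 lower without the members low in the identity list. In this list the glutamine synthetase gene glula was at 11865 and 2775 CPM (2.09, 1.80 to 2.40). Of its knockout UMIs 42.6% were in 1 barcode, and its ratio was 0.02 at equal weights. The glycine transporter gene slc6a9 had 23 UMIs in each library, or 160 and 638 CPM, and 95.7% of the control UMIs came from 1 barcode.

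Notch targets and progenitor genes summed to 17353 CPM in knockout and 5773 CPM in control radial glia. Of 32 listed genes 20 passed the minimum, 13 at least 2-fold higher in knockout and 0 lower, with a median log2 ratio of 1.19, against 20.1% higher and 13.3% lower among all genes. The gate gene her4.1 is one of the 13, and several members, such as id1, her6 and sox2, are also in the identity list. The Id factor gene id1, an inhibitor of differentiation, was at 2706 CPM in 17 of 24 knockout barcodes and 444 CPM in 4 of 11 control barcodes (2.56, 1.89 to 3.43). The hairy-related gene her6 had 132 and 5 UMIs (2.59, 1.46 to 4.37), her15.2 had 133 and 4 UMIs (2.89, 1.67 to 4.95), and her15.1 had 38 UMIs in 7 knockout barcodes and 0 in control, at least 3.17-fold higher. The receptor genes notch3 and notch1a were near even, with log2 ratios of 0.16 and -0.34. The copies her4.1 to her4.4, and her15.1 and her15.2, are near-identical, so the division of reads among them is uncertain. With the 6 members low in the identity list left out, 9 of the 20 genes were at least 2-fold higher and 0 lower, against 21.1% of all genes higher. With 2 counts added 10 were higher and 0 lower, against 11.5% and 14.3% of all genes. With the deepest barcode of each library left out 14 of 19 were higher and 0 lower, against 24.4% and 15.8%. The UMI minimum favours genes high in knockout, and her15.1 passed it through the knockout library alone. These counts and the her15.1 bound are therefore a description only.

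Per barcode the genotypes overlapped in the Notch and progenitor list, and every control value lay within the knockout range. It ran from 0 to 37886 CPM in knockout radial glia (median 7972) and from 0 to 16509 CPM in control radial glia (median 3968). The highest values were in knockout barcodes of 10690, 6773 and 3640 UMIs. The part of depth and of the number of control barcodes in this difference was not tested.

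Immediate early genes summed to 3490 CPM in knockout and 1249 CPM in control radial glia, and to 6346 and 4097 CPM in the other barcodes. Per barcode they ran from 0 to 14593 CPM in knockout (median 2438) and from 0 to 3968 CPM in control (median 904), so the groups overlapped. Of this list 7 genes passed the minimum, 6 higher in knockout and 0 lower, with a median log2 ratio of 1.77, against 20.1% higher and 13.3% lower among all genes. With only 2 gate genes required, 5 of 15 were higher and 1 lower (median 0.60), against 14.5% of all genes higher in that setting. The transcription factor gene jun had 83 UMIs in 7 of 24 knockout barcodes and 0 UMIs in 11 control barcodes, at least 6.92-fold higher by the floor. It passed the UMI minimum through the knockout library alone, and the bound does not allow for the few barcodes that held it. The growth arrest gene btg2 was at 742 and 305 CPM (1.22, 0.39 to 2.33). Heat shock and stress genes summed to 7958 CPM in knockout and 2748 CPM in control radial glia, with barcodes from 0 to 40263 CPM (median 4935) and from 0 to 7435 CPM (median 2358). Of that list 11 passed, 7 higher and 0 lower, with a median of 1.29, against the same shares of all genes. With only 2 gate genes required, 4 of 18 were higher and 2 lower, with a median of 0.67, against 14.5% of all genes higher in that setting. The inducible chaperone gene hsp70l had 230 UMIs in 7 knockout barcodes and 2 UMIs in 1 control barcode (4.53, 2.98 to 7.90), while hspa8 was near even (log2 ratio 0.11). In the other barcodes hsp70l was higher in knockout too, at 256 CPM in knockout and 52.3 CPM in control.

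The remaining large ratios in radial glia rested on few barcodes. Towards knockout, insig1, a brake on sterol synthesis, had 47 UMIs in 11 barcodes, and the homeobox gene mkxa had 44 UMIs in 5 barcodes, each with 0 UMIs in control (at least 3.92-fold and 3.67-fold higher), and hsp70.3 had 71 UMIs in 5 barcodes and 0 in control. Each of these genes passed the UMI minimum through the knockout library alone, so the bounds are a description only. Towards control, gfra4a, a co-receptor gene of the GDNF family, had 6 UMIs in knockout and 36 UMIs in control radial glia (log2 ratio -4.49, -6.12 to -3.32), with 77.8% of the control UMIs in 1 barcode. The myelin gene mbpa had 7 and 24 UMIs (-3.71, -5.24 to -2.52), jarid2b 10 and 29 UMIs, the channel gene asic2 16 and 28 UMIs, and def8 13 and 21 UMIs. The oligodendrocyte list summed to 368 CPM in knockout and 1055 CPM in control radial glia, and in free RNA to 6129 and 8731 CPM. The part of free RNA in the mbpa difference was not tested.

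Radial glia held the reporter unevenly, and more of it in the knockout library. H2B-mGL had 590 UMIs over 19 of 24 knockout radial glia and 10 UMIs over 5 of 11 control radial glia, or 4094 and 278 CPM, a log2 ratio of 3.81 (2.99 to 4.95). Knockout barcodes ran from 0 to 41848 CPM (median 686) and control barcodes from 0 to 2478 CPM (median 0). A single knockout barcode of 10690 UMIs held 353 of the UMIs (59.8%), and without it the log2 ratio was 2.61. That barcode had 51 her4.1 UMIs, 0 cx43 UMIs and a neuron list level of 8.7% of the other barcodes. The next held 96, 47, 37 and 21 UMIs, of which the one with 96 had a neuron list level of 114%.

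The reporter level of radial glia stayed under that of free RNA as a class, at 27.6% of it in the knockout and 2.80% in the control library. With only 2 gate genes required the H2B-mGL ratio was 0.43. That setting adds the barcodes with median neuron list levels of 93.2% in knockout and 56.1% in control. With 4 gate genes required the ratio was 5.85, so its size depended on the gate. gpr85 had 11 UMIs in 6 of 24 knockout radial glia and 1 UMI in 1 of 11 control radial glia, or 76.3 and 27.8 CPM, against 86.3 and 102 CPM in free RNA. The other barcodes also held more H2B-mGL in the knockout library, 25564 CPM against 12044 CPM in the control library. Thinned to 500 UMIs per barcode, 12 of 24 knockout and 4 of 11 control radial glia had an H2B-mGL UMI.

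Some genes came almost wholly from single barcodes. Of the 490 si:dkey-183j2.10 UMIs in knockout radial glia 99.2% were in 1 barcode of 13754 UMIs, and control radial glia had 0. The gene stm, known in zebrafish for its role in ear stones, had 350 UMIs in 1 control radial glia barcode, the one of 7066 UMIs, and at most 9 in any knockout radial glia barcode. The telencephalic factor gene foxg1a had 31 UMIs in 3 knockout barcodes and 0 in control. In 1 control radial glia barcode of 632 UMIs, 23 apoc1 UMIs and 29 fabp7a UMIs occurred together, and its microglia and macrophage list stood at 50633 CPM. These genes were chosen after their values had been seen.

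Of the signals that microglia receive through the Csf1 receptor, the ligand side was barely sampled. The Csf1 receptor ligand genes il34, csf1a and csf1b were at 0 UMIs in microglia of both libraries. In radial glia, il34 had 2 UMIs in knockout and 0 in control, and csf1a and csf1b had 0 in both, where 0 counts allow up to 20.8 CPM in knockout and 83.3 CPM in control. In the other barcodes each ligand was under 2 CPM in both libraries. The chemokine gene cxcl12a, a ligand of Cxcr4, was at 513 CPM in knockout and 416 CPM in control radial glia, against 2.05 and 3.67 CPM in the other barcodes.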

How the data were processed

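The deposited values are whole-number UMI counts per gene and barcode, most barcodes holding fewer than 100 UMIs, from Cell Ranger 7.1.0 and the GRCz11 build per the submitters' processing notes, which also name Seurat without its step; the annotation is not given in the sources used here. The authors' matrices hold 25435 features. Kept barcodes had 500 or more UMIs and 250 or more genes, with mitochondrial genes taking no more than 15% of UMIs, and were classed by the detection rule in the report. No doublet caller was run; neuron list levels are given instead. Counts were summed per class and library, scaled to CPM, and compared as log2 ratios with 0.5 counts added, over genes with at least 20 UMIs in both libraries together. With 1 library per genotype, a 2-fold rule of size stood in for a test. Intervals at 95% are exact Poisson, Clopper-Pearson and conditional binomial, with Katz intervals for ratios of shares. A count of 0 was compared against a floor of 3 counts. The ratios and intervals were tested on simulated data (Python 3.11.15, SciPy 1.17.1). Molecules were drawn independently there, so genes held mostly by a few barcodes were not covered. Genes named were the gate genes, reporters, the 10 highest over other barcodes, the 5 highest and 5 lowest ratios seen in at least 5 barcodes, and the most abundant of each list. Any other gene named was chosen after its values were seen. Members and lists were chosen with earlier results of these data known. Alternatives varied filters, gates, minimums, scaling, weights and free RNA.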

Additional observations from a re-analysis of the deposited data

Results flagged for a closer look

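Barcodes below the 500 UMI minimum were not used in any comparison, and some of them met the radial glia rule. Of 6069 knockout barcodes with at least 100 and fewer than 500 UMIs, 10 met it, and of 3770 control barcodes in that range, 15 met it. The microglia rule was met by 1 knockout and 2 control barcodes of that range. The order of the libraries is thus the other way round from that of the kept barcodes, of which 24 in knockout and 11 in control met the radial glia rule. Free RNA held fabp7a at 425 CPM in the knockout and 327 CPM in the control library, and its part in these small barcodes was not tested.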

How the results depend on the processing

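No paired analysis was possible because each genotype has 1 library, and leaving out a library would leave no comparison. The H2B-mGL log2 ratio in microglia was 1.94 with at least 2 gate genes. In radial glia it was 0.43 with at least 2 and 5.85 with at least 4 gate genes, 2.22 with the gate applied to barcodes thinned to 500 UMIs, 2.85 with barcodes weighted equally and 2.61 without the barcode holding most of its UMIs. With free RNA subtracted it had no value in either class, because a sum was 0. The 388 genes at least 2-fold apart in microglia became 211 with the thinned gate, 678 with equal weights, 869 with a minimum of 10 UMIs per gene, 124 with 50 and 6853 with none beyond 1 UMI. The 618 in radial glia became 1464 with at least 2 gate genes, 1491 with a minimum of 10 UMIs, 151 with 50 and 6062 with none beyond 1 UMI. A lower minimum adds genes tested; the cause of the other changes was not tested. The microglia share ratio ran from -1.03 to 0.76 over its alternatives, within its interval but on both sides of 0, and the radial glia share ratio was above 0 in each, at 0.59 or more. Alternatives at 2000 UMIs, without shared barcodes, without the deepest barcodes or without members low in the identity list, and all alternatives of the list counts, were chosen after seeing the data. Depth limits genes near 20 UMIs and all statements on gpr85.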
